A study of Mus musculus with 6 samples.

Results

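The genes followed here, in intestinal tissue of mice, are 10 genes of fat cells: Adipoq, Car3, Cfd, Retn, Plin1, Fabp4, Cidec, Nnat, Lep and Pparg. They were chosen by symbol, with these 6 libraries in view, from the 55267 gene symbols of the table, because several of them were high in some libraries of each group and low in others. Their levels and their difference between the groups are therefore a description. The choice by a spread within both groups also widens the error of that difference, so the outcome of a test on them carries no information. All 10 were found, and 9 reached the mean of 1 FPKM (fragments per kilobase of transcript, scaled to the depth of the library) that a gene needed to enter the comparison of the groups. Lep did not.

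The mice received 1 ml of water by gavage each day for 14 days and were housed at 22 °C, per the labels. The cold water group (n = 3 libraries) received water at 0 to 4 °C at 8 am, and the control group (n = 3 libraries) water at 20 to 25 °C at 9 am. Temperature and hour of dosing cannot be told apart. The labels give no strain, age or sex, nor whether the libraries of a group stem from different animals, so the spread between libraries may be technical. The tissue is named proximal jejunum in one label and colon in the design text. Markers of small intestinal enterocytes summed to 36970 to 58644 FPKM over 12 genes in a library, with none of them at 0. Libraries held 72690433 to 78668871 estimated counts each, and their log2 profiles correlated across genes at 0.944 to 0.966 within groups and at 0.941 to 0.975 between them.

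White fat cells store triglyceride in a single large droplet and release fatty acids from it when hormones call for them. The nuclear receptor PPARG, with C/EBP factors, switches on the genes of this programme, among them those for the droplet coat, for fatty acid carriers and for hormones that fat secretes into the blood. In the intestine, fat cells lie mainly in the mesentery, which attaches along the gut wall, while the absorptive cells of the epithelium carry out a fat metabolism of their own with partly different members of the same gene families.

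The secreted products of fat cells were present in cold water 2, control 1 and control 2 and were listed at 0 in cold water 1, cold water 3 and control 3. Adipoq encodes adiponectin, a hormone that raises insulin sensitivity and is made by fat cells. It had 0, 7.05 and 0 FPKM in cold water 1, 2 and 3 and 15.6, 10.3 and 0 FPKM in control 1, 2 and 3. Each group thus held libraries with and without it. Behind these levels stood estimated counts of 734 in cold water 2, 1668 in control 1 and 1063 in control 2, and a count of 0 allows up to 0.101 to 0.109 FPKM at the limit of 3 fragments per library. Cfd, which encodes adipsin, the complement factor D that starts the alternative pathway, had 0, 27.8 and 0 FPKM in cold water 1, 2 and 3 and 45.9, 42.0 and 0 FPKM in control 1, 2 and 3. Retn encodes resistin, a hormone that in the mouse comes from fat cells and opposes insulin. It had 0, 3.96 and 0 FPKM in cold water and 5.52, 4.02 and 0 FPKM in control 1, 2 and 3. Lep encodes leptin, the satiety hormone of white fat, and stayed low, with 0, 0.487 and 0 FPKM in cold water and 0.496, 0.286 and 0 FPKM in control 1, 2 and 3. In all 4 genes the cold water range lay within or overlapped the control range.

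The droplet coat gene Plin1 followed the same libraries. Plin1 encodes perilipin 1, which covers the fat droplet and gates the access of lipases. It had 0, 1.72 and 0 FPKM in cold water 1, 2 and 3 and 3.32, 2.63 and 0 FPKM in control 1, 2 and 3. All 7 of its annotated transcripts had counts in the same 3 libraries and 0 in the other 3. The gene Car3, whose product is the cytosolic carbonic anhydrase 3 of fat and muscle, had 0.840, 22.4 and 0.151 FPKM in cold water 1, 2 and 3. In control 1, 2 and 3 it had 47.6, 39.8 and 0.497 FPKM. Its highest library lay 316-fold above its lowest. Skeletal muscle also makes Car3. Its markers summed to 11.8, 19.1 and 6.71 FPKM over 11 genes in cold water and to 10.8, 16.6 and 7.02 FPKM in controls. The sum was highest in cold water 2 and control 2. Of the 11 genes, 4 were at 0 in all 6 libraries, the fast myosin genes Myh1, Myh2 and Myh4 and the parvalbumin gene Pvalb. The part of muscle in the level of Car3 was not tested.

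**Figure D1:**
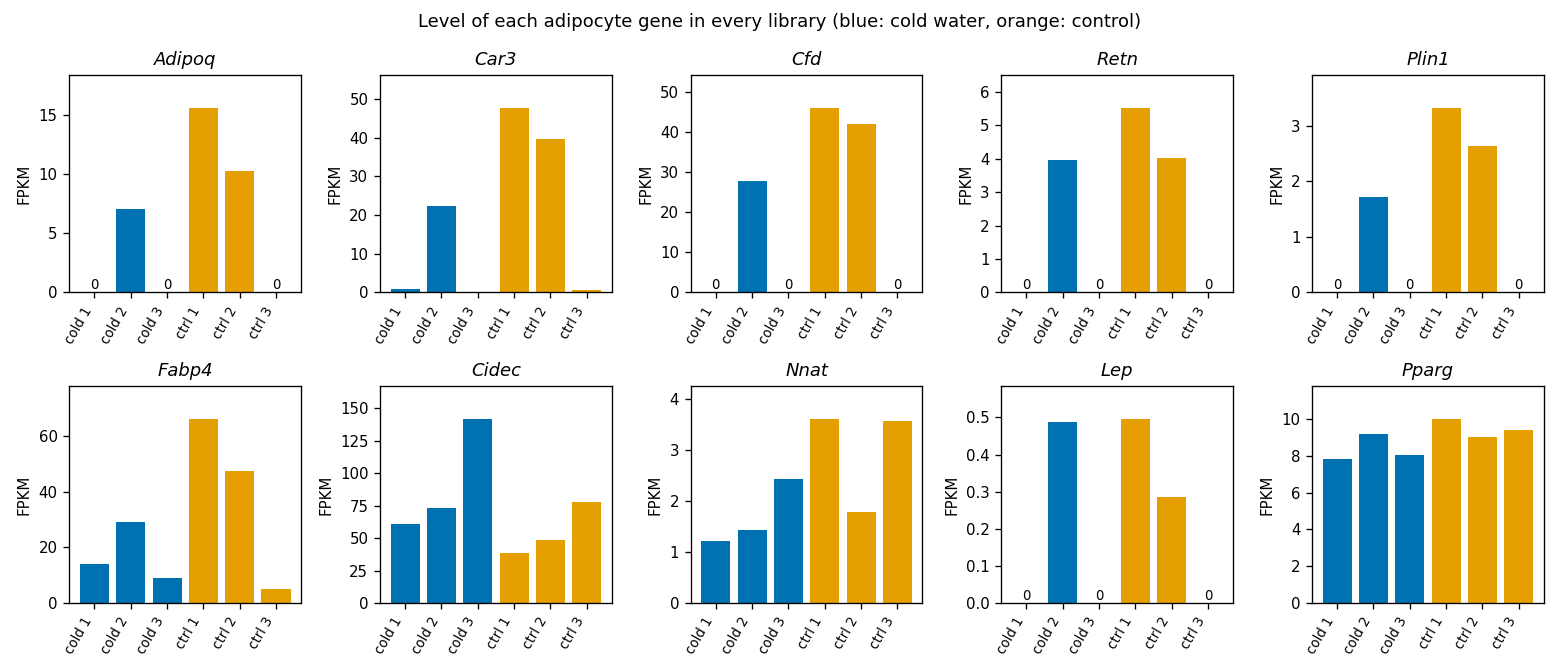
FPKM of each of the 10 genes in every library, each panel with its own linear axis from 0 (blue, cold water; orange, control; a 0 marks a gene listed at 0). Adipoq, Cfd, Retn, Plin1 and Lep are at 0 in cold water 1, cold water 3 and control 3, while Cidec, Nnat and Pparg are present in every library.

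Fabp4, which encodes the fatty acid carrier of fat cells and is also made by capillary endothelium and macrophages, did not reach 0 in any library. It had 14.0, 29.1 and 8.91 FPKM in cold water 1, 2 and 3 and 66.1, 47.5 and 5.23 FPKM in control 1, 2 and 3. The highest of these lay 12.7-fold above the lowest, and the 3 highest were again cold water 2, control 1 and control 2. Markers of blood vessel endothelium summed to 31.1, 24.4 and 16.2 FPKM over 10 genes in cold water and to 23.5, 34.9 and 16.0 FPKM in controls. Markers of macrophages summed to 208, 56.7 and 54.6 FPKM over 10 genes in cold water and to 65.0, 79.1 and 49.8 FPKM in controls. Their part in the level of Fabp4 was not tested.

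In the 3 libraries where all of these genes were present, their levels relative to each other were similar for some and uneven for others. Plin1 stood at 24.4, 21.2 and 25.6% of the FPKM of Adipoq in cold water 2, control 1 and control 2. Fabp4 stood at 413, 423 and 462% and Car3 at 318, 305 and 387% of it in the same libraries. Cfd stood at 394, 294 and 409% and Retn at 56.2, 35.3 and 39.2%. Lep moved furthest from the others, with 6.91% in cold water 2 against 3.18 and 2.78% in the control libraries. Control 1 had 2.22 times the Adipoq FPKM of cold water 2, 2.13 times its Car3, 1.93 times its Plin1 and 1.39 times its Retn, but 1.02 times its Lep, which rests on counts of 128 and 134.

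Nnat did not follow the libraries that were high for Adipoq. Nnat encodes neuronatin, a small membrane protein of the endoplasmic reticulum in fat, endocrine cells and neurons. It had 1.22, 1.44 and 2.43 FPKM in cold water 1, 2 and 3 and 3.61, 1.80 and 3.58 FPKM in control 1, 2 and 3. Its isoforms were spread unevenly. Nnat-202 (ENSMUST00000109526), which encodes 81 residues, had counts of 81, 58 and 1 in cold water 1, 2 and 3 and of 180, 70 and 1 in control 1, 2 and 3. Nnat-205 (ENSMUST00000153739), which encodes 54 residues, had counts of 18, 15 and 99 in cold water and of 38, 28 and 188 in controls, so that it led in cold water 3 and control 3. The gene lies inside Blcap on the opposite strand, which had 28.7 to 35.5 FPKM, and Nnat held 3.44% of the summed counts of both genes. The sources used here do not say if strand was kept, so the level of Nnat is uncertain. Markers of enteric neurons and glia, another known source of Nnat, summed to 14.7 to 43.7 FPKM over 13 genes in cold water and to 11.6 to 63.6 FPKM in controls. Their part in the level of Nnat was not tested.

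Pparg as a whole was even across the libraries, but its isoforms were not. The gene had 7.80, 9.17 and 8.05 FPKM in cold water 1, 2 and 3 and 10.002, 8.99 and 9.41 FPKM in control 1, 2 and 3. Pparg has alternative first exons. The form PPARG1 is made in many tissues, intestinal epithelium included, and PPARG2, with additional residues at its N terminus, is the form particular to fat cells. Pparg-201 (ENSMUST00000000450), which encodes 505 residues and starts at position 115422066 of chromosome 6, had counts of 0, 631 and 0 in cold water 1, 2 and 3. In control 1, 2 and 3 it had counts of 217, 654 and 0. It was at 0 in the same 3 libraries as Adipoq. It took 44.2% of the counts of the gene in cold water 2, 14.1% in control 1 and 47.3% in control 2. The order within these 3 libraries was not that of Adipoq, which was highest in control 1.

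Both transcripts that encode 475 residues, Pparg-202 (ENSMUST00000171644) and Pparg-204 (ENSMUST00000203732), together had counts of 1429, 788 and 1326 in cold water 1, 2 and 3. In control 1, 2 and 3 they had counts of 1317, 717 and 1587. They were lowest in cold water 2 and control 2, where the share of Pparg-201 was largest. With the gene as a whole even across libraries, this is the complement of that share and no separate observation. Taken singly, Pparg-202 had counts of 1429, 733 and 1326 in cold water and of 327, 717 and 926 in controls. Pparg-204 had counts of 0, 55 and 0 in cold water and of 990, 0 and 661 in controls. The split was thus uneven between transcripts of the same protein as well. Most exons are shared between the forms, so the split between them is an estimate of the authors' processing that rests on the first exons.

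The 250 bases before the start of the 505 residue form, and before the RefSeq start at 115362349, which lies near the start of Pparg-204 at 115362292, are shown because the isoforms do not share them. They come from RefSeq (GRCm38.p6), 5′ to 3′ on the strand of the gene. Capitals mark each match to TTGCNNAA, a motif of the C/EBP factors, and to CCAAT, both read on either strand, and to TATAAA on the strand of the gene. The first sequence is at chr6:115421816-115422065, plus strand, and the other at chr6:115362099-115362348, plus strand.
Pparg, start of the 505 residue form: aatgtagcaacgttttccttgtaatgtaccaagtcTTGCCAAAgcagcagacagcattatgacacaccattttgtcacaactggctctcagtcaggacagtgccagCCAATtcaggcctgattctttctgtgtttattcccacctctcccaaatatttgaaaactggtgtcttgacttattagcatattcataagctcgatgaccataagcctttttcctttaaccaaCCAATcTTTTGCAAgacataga
Pparg, RefSeq start near Pparg-204: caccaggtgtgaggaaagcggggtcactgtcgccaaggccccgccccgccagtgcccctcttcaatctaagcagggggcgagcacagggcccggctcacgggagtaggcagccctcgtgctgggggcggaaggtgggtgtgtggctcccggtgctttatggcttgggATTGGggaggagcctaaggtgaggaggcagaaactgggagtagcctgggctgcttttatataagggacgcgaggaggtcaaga
The window of the 505 residue form held TTGCCAAA at 215 to 208 bases and TTTTGCAA at 16 to 9 bases before the start, and CCAAT in 2 places. The window near Pparg-204 held CCAAT on the opposite strand in 1 place and no TTGCNNAA. It runs past the annotated start of that transcript. The window before the RefSeq start at 115361144, the nearest to Pparg-202, held none of these motifs and is not shown. It too runs past the annotated start of its transcript, which for Pparg-202 is 115360951. Of 32851 RefSeq promoter windows of this length, 9.56% held TTGCNNAA, 33.8% CCAAT and 7.59% TATAAA. A match is a description of the letters and not of binding.

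Promoters were in the RefSeq table for 8 of the 10 genes, with 11 windows in all, and Car3 and Fabp4 had none there. Those of Adipoq, Plin1 and Lep are shown as genes that were at 0 in the same libraries as Pparg-201, with the same marking. They are at chr16:23146286-23146535, plus strand, at chr7:79732777-79733026, minus strand, and at chr6:29059971-29060220, plus strand.
Adipoq: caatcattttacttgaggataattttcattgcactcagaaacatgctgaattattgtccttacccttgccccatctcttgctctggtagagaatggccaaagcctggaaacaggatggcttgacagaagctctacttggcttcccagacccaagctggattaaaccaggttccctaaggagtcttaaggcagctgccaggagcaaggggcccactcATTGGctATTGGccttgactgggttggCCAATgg
Plin1: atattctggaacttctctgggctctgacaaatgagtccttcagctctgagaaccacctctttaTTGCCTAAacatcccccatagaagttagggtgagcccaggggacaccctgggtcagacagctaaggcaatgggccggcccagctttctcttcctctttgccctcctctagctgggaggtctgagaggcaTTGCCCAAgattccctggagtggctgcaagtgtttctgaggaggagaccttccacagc
Lep: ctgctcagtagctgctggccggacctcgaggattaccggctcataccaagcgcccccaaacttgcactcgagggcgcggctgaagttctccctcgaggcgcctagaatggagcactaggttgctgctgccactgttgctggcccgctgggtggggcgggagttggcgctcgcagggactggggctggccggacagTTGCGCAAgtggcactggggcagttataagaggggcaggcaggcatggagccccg
The window of Plin1 held TTGCCTAA at 187 to 180 bases and TTGCCCAA at 58 to 51 bases before the start, and that of Lep held TTGCGCAA at 55 to 48 bases. The window of Adipoq held no TTGCNNAA and CCAAT in 3 places within 34 bases of the start. The windows of Cfd, Retn and Nnat held none of these motifs. The direct repeat DR1, read on either strand as a motif of PPARG with its partner RXR, was in 0.338% of all windows and in none of the 11.

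Cidec was abundant in every library and was the highest of the 10 genes in all of them but control 1. It encodes a protein that joins fat droplets into larger ones, and it is made by absorptive cells of the small intestine as well as by fat. It had 61.0, 73.3 and 142 FPKM in cold water 1, 2 and 3 and 38.7, 48.5 and 77.7 FPKM in control 1, 2 and 3. Its lowest level was in control 1, where Adipoq was highest. Its paralog Cideb, which in liver and intestine serves the loading of lipoproteins with fat, had 298 to 376 FPKM in cold water and 325 to 410 FPKM in controls. The paralog Cidea, a droplet protein of brown fat, had 0.436, 1.44 and 0.385 FPKM in cold water 1, 2 and 3 and 0.920, 1.09 and 0 FPKM in control 1, 2 and 3.

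The isoforms of Cidec were divided over the libraries as those of Pparg were, but in the other direction. Cidec-203 (ENSMUST00000113091), which encodes 249 residues from its own first exon at position 113434764 of chromosome 6, took 39.0, 3.94 and 40.8% of the counts of the gene in cold water 1, 2 and 3. It took 1.75, 2.91 and 31.9% of them in control 1, 2 and 3. The transcripts that encode 239 residues, Cidec-201 and Cidec-202, start at 113435756 and 113435760 and had counts of 3744, 9291 and 7655 in cold water and of 5199, 6181 and 5637 in controls. The share of the longer form was thus above 30% in cold water 1, cold water 3 and control 3 and under 5% in the libraries with Adipoq. Cidec-201 had a count of 4838 in control 1 and of 0 in every other library, while Cidec-202 fell to 361 in control 1. These forms start close together, so the split between isoforms of Cidec is an uncertain estimate too. In mouse liver, a form of this protein with additional residues at its N terminus is known. The 250 bases before both starts are shown because the forms do not share them, at chr6:113434765-113435014, minus strand, and at chr6:113435761-113436010, minus strand.
Cidec, start of the 249 residue form: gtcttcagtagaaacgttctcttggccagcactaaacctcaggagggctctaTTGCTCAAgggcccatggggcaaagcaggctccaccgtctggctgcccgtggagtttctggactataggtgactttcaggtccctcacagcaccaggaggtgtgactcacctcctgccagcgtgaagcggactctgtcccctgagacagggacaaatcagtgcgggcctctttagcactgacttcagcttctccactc
Cidec, start of the 239 residue form: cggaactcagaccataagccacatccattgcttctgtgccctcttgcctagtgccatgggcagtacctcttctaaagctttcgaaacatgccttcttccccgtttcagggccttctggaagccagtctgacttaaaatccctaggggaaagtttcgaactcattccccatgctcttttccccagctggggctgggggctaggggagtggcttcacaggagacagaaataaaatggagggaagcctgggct
The window of the 249 residue form held TTGCTCAA at 198 to 191 bases before the start, and that of the 239 residue form none of the motifs.

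**Figure D2:**
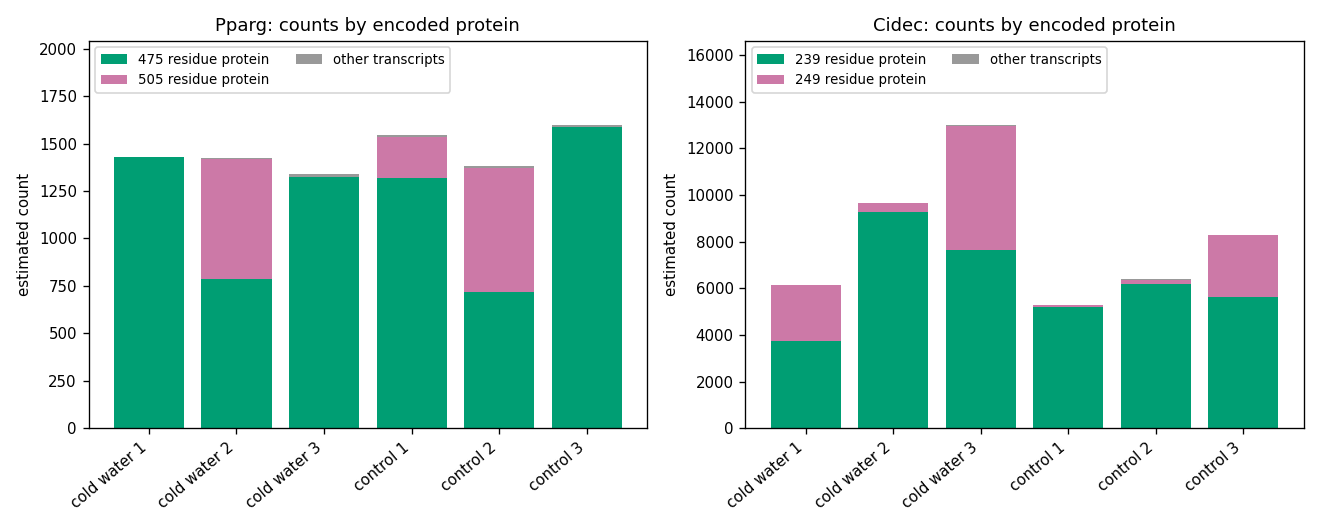
Estimated counts of Pparg (left) and Cidec (right) in every library, stacked by the length of the encoded protein. The 505 residue form of Pparg has counts in cold water 2, control 1 and control 2 alone, and the 249 residue form of Cidec takes 31.9 to 40.8% of the counts in the other 3 libraries.

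Cold water was then compared with control, which addresses whether repeated intake of cold water changed the fat cell genes of the tissue. Adipoq had 2.35 ± 4.07 FPKM (SD, n = 3) in cold water and 8.63 ± 7.94 FPKM in controls, with a log2 difference of -1.81 and a standard error of 2.43. Car3 had 7.80 ± 12.7 and 29.3 ± 25.3 FPKM, with a log2 difference of -1.83 and a standard error of 1.899. Fabp4 had 17.3 ± 10.5 and 39.6 ± 31.2 FPKM, with a log2 difference of -1.15 and a standard error of 0.81. Cidec stood the other way, at 92.0 ± 43.5 FPKM in cold water and 54.98 ± 20.3 FPKM in controls, with a log2 difference of 0.60 and a standard error of 0.38. In each of these the difference between the means was smaller than the larger of the group SDs.

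For Plin1, Cfd, Retn and Nnat the log2 differences were -2.01, -1.59, -1.20 and -0.89, with standard errors of 2.28, 2.51, 2.22 and 0.44. Pparg had a log2 difference of -0.084 with a standard error of 0.17. Of the 9 genes, 8 had a lower mean in cold water, and their median was -1.20 where that of all 12939 genes tested was 0.029. In the fit over all genes 0.0386% passed edgeR's quasi-likelihood test after Benjamini-Hochberg adjustment, and the members called were 0 of 9, from which nothing is read, since high and low libraries within each group were what the genes were chosen for. The overlap of the groups in all 10 genes follows from the same choice. In bulk tissue, fewer fat cells and less RNA per fat cell cannot be told apart.

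These differences depended on cold water 2, the single cold water library with counts of Adipoq, Cfd, Retn and Plin1. Without it, and with the count of 0 put at its limit of 3 fragments per library, cold water lay lower by at least 6.29 (Adipoq), 7.50 (Cfd), 4.99 (Plin1) and 4.29 (Retn) on the log2 scale. The log2 difference of Car3 was then -5.86 and that of Fabp4 -1.76. With each of the other libraries left out in turn, the log2 difference ran from -2.41 to -0.99 for Adipoq, from -1.79 to -0.47 for Retn and from -1.67 to -0.51 for Fabp4, in each with the smallest size without control 1.

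**Figure D3:**
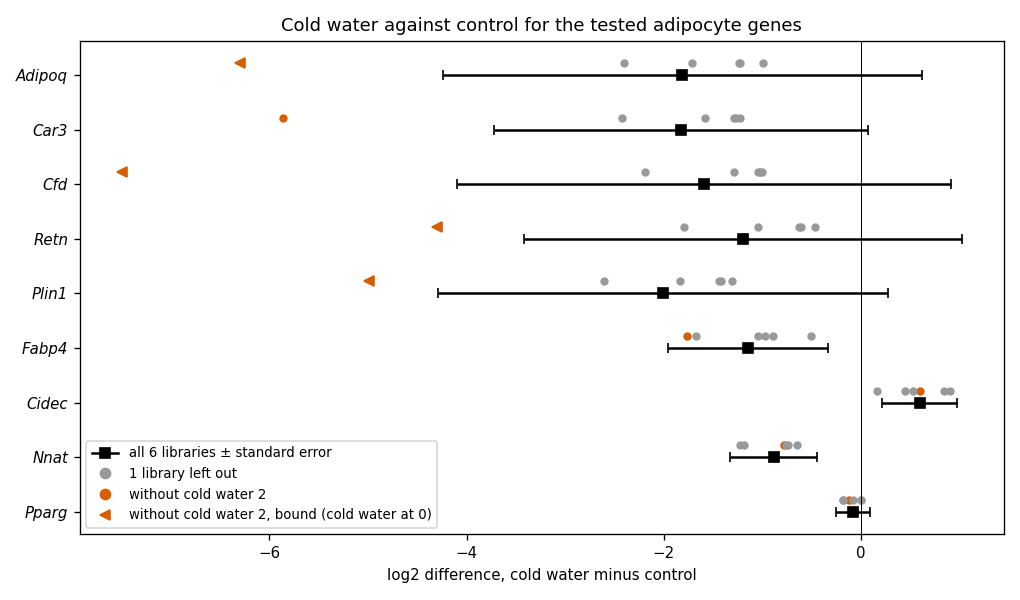
Log2 difference, cold water minus control, of the 9 tested genes (squares, with standard errors), and the same with 1 library left out (dots; triangles are bounds where cold water was at 0). Without cold water 2 the values of Adipoq, Cfd, Retn, Plin1 and Car3 lie between -7.50 and -4.29, far from the values with all 6 libraries.

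At the level of transcripts, the 10 genes had 41 entries, 37 of them with a count in some library and 13 at a mean of 1 FPKM or more. Pparg-201 had a log2 difference of -0.38 with a standard error of 3.01. Cidec-203 had 1.49 with a standard error of 1.57.

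Other genes of fat metabolism were read from 10 lists, with 154 genes beside the members, of which 105 were tested. None of the 105 passed edgeR's quasi-likelihood test over all genes in either direction. Of them 4 had an unadjusted edgeR p under 0.05, as had 648 of all 12939 genes tested. DESeq2 and limma called none of the 105. Their median log2 difference was -0.063, with 49 higher and 56 lower. The 3 highest libraries were cold water 2, control 1 and control 2 for 19 of the 105, where this held for 8.32% of all genes tested. Adjusted p ran from 0.878 to 1.00.

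Among droplet and lipolysis genes, 4 of 12 tested were higher and 8 lower, with a median of -0.17. Plin4, a perilipin of fat and muscle, had 1.87, 5.01 and 0.873 FPKM in cold water 1, 2 and 3 and 4.66, 7.80 and 0.424 FPKM in control 1, 2 and 3. Its high and low libraries were those of Adipoq, but control 1, the highest for Adipoq, was the lowest of the high ones for Plin4. Plin2 and Plin3, the perilipins that coat droplets in most cells, had 38.5 to 66.4 and 64.4 to 108 FPKM over the 6 libraries and did not share that order. G0s2, an inhibitor of the lipase ATGL, had 7.28 FPKM in cold water 2 and 6.80 FPKM in control 2 but 2.57 FPKM in control 1.

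Among genes of fatty acid uptake and triglyceride synthesis, 10 of 16 tested were higher and 6 lower, with a median of 0.061. Lpl, the lipase that frees fatty acids from circulating lipoproteins, had 1.07, 3.56 and 0.507 FPKM in cold water 1, 2 and 3 and 5.00, 4.94 and 0.545 FPKM in control 1, 2 and 3. The insulin-dependent glucose carrier Slc2a4 had 4.50, 9.00 and 1.87 FPKM in cold water and 5.16, 11.4 and 0.676 FPKM in controls. Dgat1, which adds the last fatty acid to a triglyceride, had 358 to 626 FPKM over the 6 libraries. Dgat2, which does the same from newly made fatty acids, had 136, 155 and 278 FPKM in cold water and 68.5, 76.2 and 106 FPKM in controls. The groups did not overlap, as in 8 of the 105 tested genes of all lists and in 9.44% of all genes tested. Dgat2 did not pass (log2 difference 1.20, standard error 0.39, edgeR adjusted p = 0.878).

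Among lipogenesis genes, 5 of 9 tested were higher and 4 lower, with a median of 0.16. Scd1, the desaturase that makes oleic acid, had 6.58, 39.0 and 1.16 FPKM in cold water 1, 2 and 3 and 33.0, 46.2 and 0.402 FPKM in control 1, 2 and 3. Thrsp, a regulator of fatty acid synthesis in fat and liver, had 0.674, 8.86 and 0.413 FPKM in cold water and 7.61, 7.51 and 0.0627 FPKM in controls. Their highest libraries lay 115-fold (Scd1) and 141-fold (Thrsp) above their lowest, and each group held high and low values.

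Brown and beige fat burn fatty acids for heat and respond to cold exposure of the body. Ucp1, the uncoupling protein of brown fat, had a count of 0 in all 6 libraries, as did Elovl3 and Otop1, and Dio2 did not exceed 0.0641 FPKM. Adrb3, the adrenergic receptor through which noradrenaline acts on fat cells, had 0.352, 1.32 and 0.112 FPKM in cold water 1, 2 and 3 and 2.17, 2.14 and 0.109 FPKM in control 1, 2 and 3. The list had 6 genes tested, 1 higher and 5 lower, with a median of -0.27. Prdm16, counted as lower at -0.22 from counts, was higher by FPKM, with means of 1.61 in cold water and 0.956 in controls. Cox7a1, a respiratory chain subunit of muscle and brown fat, was the most abundant of the list, with 132 to 161 FPKM in cold water and 162 to 194 FPKM in controls, followed by the glycerol kinase gene Gk with 24.2 to 32.9 FPKM and by Ppargc1a, a coactivator of mitochondrial genes, with 4.10 to 7.60 FPKM over the 6 libraries.

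The receptors for the hormones of fat were present whatever the level of the hormone. Adipor1 and Adipor2, the receptors of adiponectin, had 32.5 to 36.1 and 68.99 to 99.9 FPKM over the 6 libraries. The leptin receptor Lepr had 0.420 to 1.89 FPKM. Of 7 genes tested in this list 1 was higher and 6 lower, with a median of -0.24. Among the adipogenic transcription factors, 4 of 10 tested were higher and 6 lower, with a median of -0.13. Among secreted proteins of fat other than the members, 4 of 10 were higher and 6 lower, with a median of -0.082. Genes of adipocyte precursors had 9 of 11 higher and 2 lower, with a median of 0.26, and Dlk1, the classical preadipocyte marker, did not exceed 0.0246 FPKM. Of the remaining adipocyte genes, 5 of 11 were higher and 6 lower, with a median of -0.073.

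Some relatives of the members that serve the epithelium were far more abundant than the members. Fabp1 and Fabp2, the fatty acid carriers of enterocytes, had 5213 to 9145 and 4430 to 5937 FPKM over the 6 libraries, while Fabp4 spanned 5.23 to 66.1 FPKM. Car4, a membrane carbonic anhydrase of the epithelium, had 149 to 306 FPKM. Retnla, a relative of resistin made by macrophages and fat, had 0.451, 3.35 and 0.718 FPKM in cold water 2, control 1 and control 2 and was at 0 in the other 3 libraries. Retnlb, the relative made by goblet cells, had 0.178 to 0.835 FPKM with no such gap. Of 19 relatives tested, 8 were higher and 11 lower, with a median of -0.063.

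The genes with the profile most like that of the members were sought by the mean absolute difference, over the 6 libraries, between a gene's log2(CPM + 0.5) centred on its mean and the median of the 9 tested members. CPM is the count scaled to the library total. The 10 nearest were Cyp2e1 (0.33), Lpl (0.34), Hp (0.36), Thrsp (0.38), Rpl35a-ps3 (0.47), Adrb3 (0.50), Plin4 (0.55), Carmn (0.57), Zfp422 (0.61) and Trf (0.62), where the median over all genes tested was 1.58. With 6 libraries such a ranking is coarse. The members themselves lay between 0.066 (Retn) and 1.77 (Cidec), and Nnat and Pparg, both at 1.60, were no nearer than a typical gene. Cfd at 1.504 and Car3 at 1.276 also lay far off, though both were highest in the libraries with Adipoq. The measure also counts the size of the differences between libraries. A value near the median of all genes thus does not by itself mark another pattern. Cyp2e1, an ethanol-oxidising cytochrome of liver and fat, had 0.850, 3.19 and 0.143 FPKM in cold water 1, 2 and 3 and 6.56, 5.74 and 0.470 FPKM in control 1, 2 and 3. Haptoglobin (Hp), a haemoglobin-binding plasma protein that fat also secretes, had 0, 1.29 and 0.211 FPKM in cold water and 2.93, 2.24 and 0.0653 FPKM in controls.

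**Figure D4:**
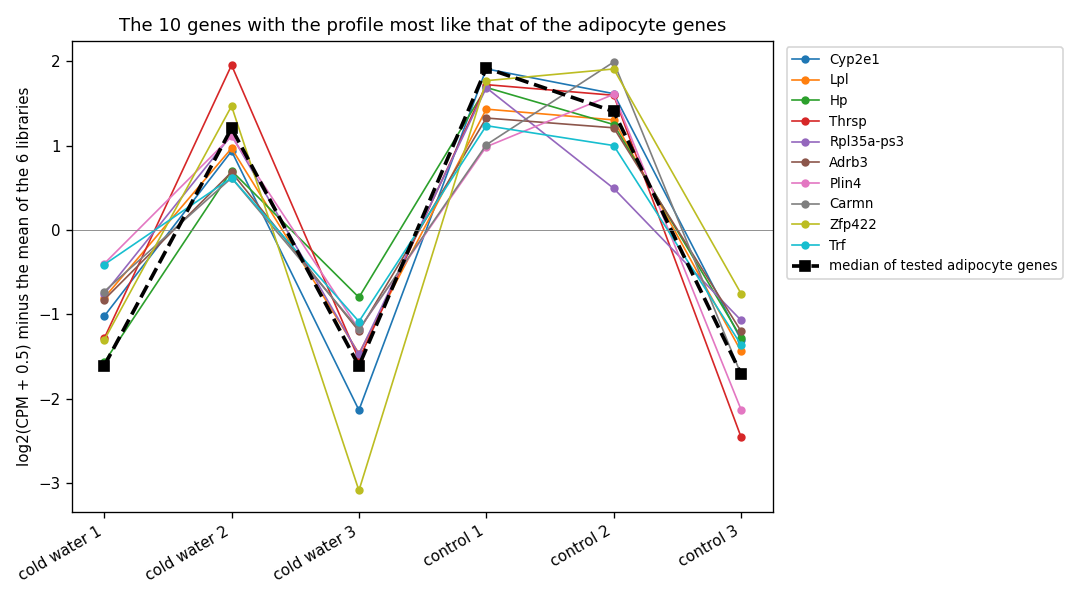
Centred log2(CPM + 0.5) of the 10 genes nearest to the members (coloured lines) and the median of the 9 tested members (black dashes) in every library. The median lies at 1.20, 1.92 and 1.40 in cold water 2, control 1 and control 2 and between -1.70 and -1.61 in the other libraries.

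Of the 12939 genes tested, 4 were at 0 in cold water 1, cold water 3 and control 3 alone. These were the members Adipoq, Cfd, Retn and Plin1. The members were chosen with such a spread in view, so nothing is read from this. Below the filter, among the rest of the 55267 gene symbols, 98 genes were at 0 in the same libraries alone, Lep among them. No other set of 3 libraries was counted, so nothing is read from the 98. By mean FPKM the highest of them were Retnla, the microRNA gene Mir143 and Mrap, and the others held many predicted genes. Mir143 and Mrap were named after their values were seen. Mrap, an accessory protein of melanocortin receptors, had 0.638, 1.41 and 1.05 FPKM in cold water 2, control 1 and control 2.

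Markers of other cell types also varied between libraries. Mesothelium, the cell layer that covers the gut and its mesentery, had its 3 highest libraries where Adipoq was present. Its markers summed to 3.04, 4.78 and 4.45 FPKM over 10 genes in cold water 1, 2 and 3 and to 4.97, 5.46 and 2.64 FPKM in control 1, 2 and 3. Cold water 3, where Adipoq was at 0, lay close below them. Smooth muscle markers summed to 890, 1433 and 359 FPKM over 10 genes in cold water 1, 2 and 3 and to 729, 1757 and 180 FPKM in control 1, 2 and 3. Cold water 1 thus had more smooth muscle signal than control 1, while Adipoq was at 0 in the former and highest in the latter. Fibroblast markers summed to 166, 147 and 82.9 FPKM in cold water and to 126, 201 and 48.4 FPKM in controls. B cell markers summed to 132 FPKM in cold water 1 and to 3.56 to 7.51 FPKM in the other 5 libraries. The part of these cell types in the levels of the members was not tested.

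Of the 12 white adipocyte markers, 6 were at 0 in cold water 1, 5 in cold water 3, 7 in control 3 and 0 in the other libraries. Those at 0 were in each case the members Adipoq, Plin1, Lep, Retn and Cfd, chosen with such a spread in view. Beside these, the markers at 0 were Adig in cold water 1 and control 3 and Slc7a10 in control 3. Their summed level was 108 to 215 FPKM in cold water and 153 to 180 FPKM in controls and did not follow Adipoq, since Cidec, Lipe and Aqp7 made up most of it. Beside the members, 6 of the markers remain. The hormone-sensitive lipase gene Lipe had 32.5, 51.4 and 44.6 FPKM in cold water 1, 2 and 3 and 56.8, 44.6 and 57.1 FPKM in control 1, 2 and 3. The glycerol channel gene Aqp7 had 13.6, 22.5 and 27.8 FPKM in cold water and 10.5, 11.96 and 17.4 FPKM in controls. Both were present in every library. Adig, Trarg1, Acvr1c and Slc7a10 each stayed below the levels of Lipe and Aqp7 in every library. Adig, Trarg1 and Slc7a10 had their highest levels in cold water 2, control 1 and control 2, the libraries with Adipoq. Acvr1c, Lipe and Aqp7 did not share that order.

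**Figure D5:**
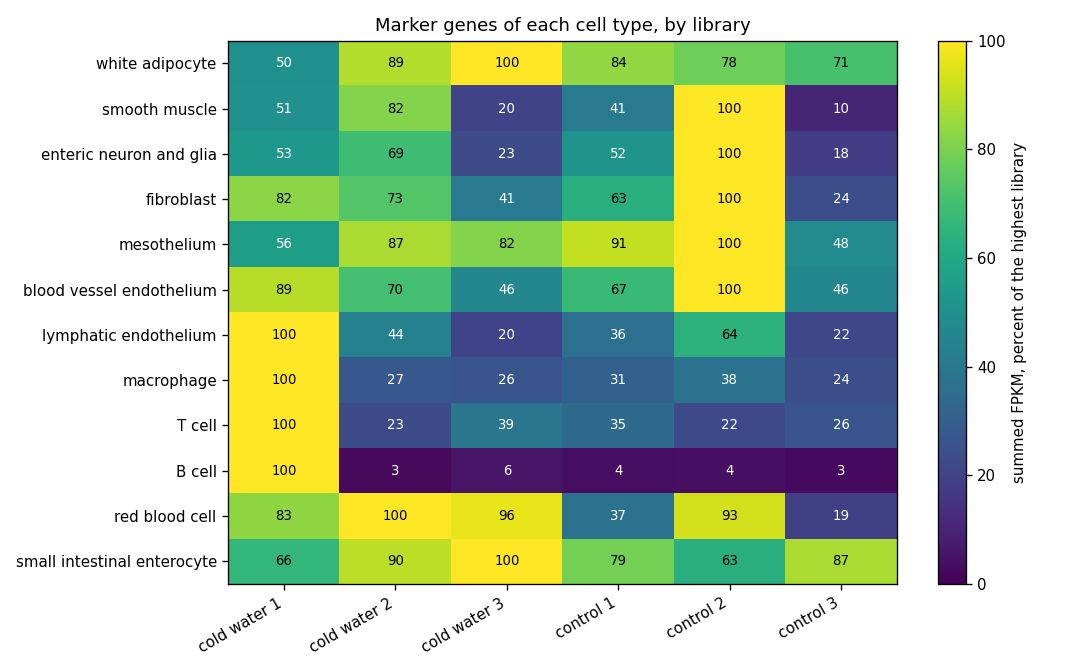
Summed FPKM of the markers of each cell type in every library, as a percent of the highest library. The full list of 12 white adipocyte markers stands at 50.2 to 100% in every library, while smooth muscle spans 10.3 to 100% and mesothelium 48.3 to 100%.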

How the data were processed

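RNA was sequenced after removal of ribosomal RNA, with 3 libraries per group. Among the tools named in the submitters' processing notes are HISAT2 2.0.4 and StringTie 1.3.4d, with cutadapt 1.9 and FastQC 0.10.1. Strand setting and genome build were not stated. The authors' FPKM and estimated count stand side by side, per the file headers, for 142604 transcripts in each library. The deposited estimated counts follow FPKM times transcript length, rounded up, within a tolerance of 0.02, so they are coverage estimates. Totals were 72690433 to 78668871 counts, and low values gathered at 3.755 to 3.765 counts, taken as the worth of 1 fragment (19306888 to 20894786 fragments). Limits from a count of 0 cover counting error only. All 41 transcripts of the members had the coordinates of GENCODE M21 (GRCm38), which gave the protein lengths.

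Transcripts were summed by gene symbol, with transcripts at a count of 0 set to 0 FPKM. Genes with a mean of at least 1 FPKM were compared by edgeR 4.0.16 (R 4.3.3; quasi-likelihood test, TMM factors 0.897 to 1.10, group as sole term, Benjamini-Hochberg at 0.05). The standard error is the log2 difference divided by the root of the F statistic. The code was tested on simulated data. DESeq2 1.42.0 and limma 3.58.1 were alternatives, with other scalings, filters, a replicate block and each library left out. The members and lists were chosen with earlier results of these data known. Beside the members, the text names, per list, the genes of highest level or widest range, the relatives of the members and the 10 nearest profiles. Other genes named, such as Ucp1, Dio2, Elovl3, Otop1, Dlk1 and the muscle genes at 0, were chosen after their values were seen.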

Additional observations from a re-analysis of the deposited data

How the results depend on the processing

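The count of genes past the threshold, 5 of 12939 with all 6 libraries, was 3 with library totals alone, 3 with counts per fragment, 3 with no filter on low values, 2 with a filter at 0.1 FPKM, 3 with limma on log2(FPKM + 1), 3 with limma on log2(FPKM + 0.1) and 71 with DESeq2. It was 0 to 1 with any 1 library left out. The cause was not tested. No other gene of the fat lists was called under any of the 15 alternatives. The median log2 difference of the members ran from -4.29 to -0.65 with 1 library left out. The lowest came without cold water 2 and is a bound, with counts of 0 put at the limit of 3 fragments. The replicate numbers of the labels did not pair the libraries. Deviations from the group means correlated at -0.0061, 0.24 and 0.44 for numbers 1, 2 and 3, and not every library correlated best with its own number. With the replicate number as a block the count of genes past the threshold was 0, the median of the members was -2.35, and the log2 differences were -4.11 for Adipoq, -4.31 for Cfd, -3.89 for Plin1 and -3.17 for Retn. By limma on log2(FPKM + 0.1), which is another scale, Cfd was at -3.15 and the median at -1.89. Low levels limit the reading of Lep, Retn and Plin1, which rest on counts of 75 to 639.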
